A study of Mus musculus with 20 samples.

Results

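Depot identity was examined in fat from which the phosphatase protector α4 had been deleted. The samples were 5 brown adipose tissue (BAT) and 5 inguinal white adipose tissue (iWAT) libraries of Ai-α4KO mice, 10 of the 20 libraries in the study. The members were taken by their genotype and tissue labels. Ai-α4KO mice carried floxed α4 (Igbp1) alleles and an Adiponectin-CreERT2 transgene, in which an adipocyte promoter drives a Cre recombinase that tamoxifen switches on. The other 10 libraries, 5 from each tissue, came from Control mice. By the study's methods these carried the floxed alleles without the transgene, while the labels name them WT. All mice were male, on a mixed C57Bl/6 background, and all received tamoxifen, which was begun at 2 months of age. Tissue was taken 1 week after recombination. The Cre acts in adipocytes, so that the other cells of the tissue kept α4. The labels leave it unsaid whether 1 mouse gave both tissues or whether libraries are separate animals, and the p-values therefore measure the spread between these libraries.

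Brown adipocytes burn fuel in their many mitochondria and release the energy as heat through uncoupling protein 1 (UCP1), whereas white adipocytes of the inguinal depot store triglyceride and can take on a thermogenic (beige) state. The depots also descend from separate embryonic precursors. Adult fat carries this history in its homeobox (Hox) and other patterning transcription factors, of which anterior members mark the interscapular region and posterior members the inguinal region. α4 protects the catalytic subunits of type 2A phosphatases from degradation. The question was which of these depot differences were present once α4 had been removed from the adipocytes.

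Between 24023371 and 34274184 reads were counted in the Ai-α4KO BAT libraries and between 31172518 and 50384446 in the Ai-α4KO iWAT libraries. Levels are given as CPM, TMM-normalised counts put on the same total in every library. CPM compares a gene between libraries, and not genes with each other. Igbp1, on chromosome X, checks the genotype labels. It stood at 14.3, 14.2, 17.4, 25.2 and 13.7 CPM in Ai-α4KO BAT and at 10.7, 10.1, 11.1, 11 and 11 CPM in Ai-α4KO iWAT, against 85.4 to 105 CPM in Control BAT and 57.5 to 76.6 CPM in Control iWAT. Every Ai-α4KO library was thus below every Control library of its tissue.

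Skeletal muscle markers (26 genes of the contractile apparatus) set some libraries apart. They took 2.43%, 2.66%, 4.72%, 8.41% and 4.75% of the counts in Ai-α4KO BAT, and 0.919%, 0.0228%, 0.0184%, 0.00531% and 0.00534% in Ai-α4KO iWAT. Library 1 of Ai-α4KO iWAT was far above the other iWAT libraries of its genotype and below all Ai-α4KO BAT libraries. In Control BAT the share was 0.17% to 1.7%, and in Control iWAT 0.00845% to 1.15%, with library 4 highest. Acta1, skeletal muscle actin, was at 2390 to 7961 CPM in Ai-α4KO BAT, and at 1316 CPM in library 1 and 2.38 to 20 CPM in the other libraries of Ai-α4KO iWAT. All 26 markers had a positive fold change from iWAT to BAT (median log2 difference 4.71, and 8.89 without iWAT library 1) and 25 of them did not overlap between the tissues. Only 4 (Myl1, Tnnt1, Ryr1 and Eno3) were called, and 26 of 26 were called without iWAT library 1. Values without this library, or with the muscle score of each library as a covariate, are therefore given beside many of the results below. Because the marker share did not overlap between the tissues in Ai-α4KO mice, muscle signal and depot cannot be told apart for most genes. Control iWAT libraries 1 and 4 had summed B cell markers of 876 and 468 CPM, against 20.2 to 24.1 CPM in the other Control iWAT libraries.

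BAT and iWAT remained distinct without α4. Of 14703 genes tested, 1689 (11.5%) differed between Ai-α4KO BAT and Ai-α4KO iWAT by at least 2-fold with adjusted p under 0.01, of which 1235 (8.4%) were higher in BAT and 454 (3.09%) in iWAT. The libraries of the tissues did not overlap for 3696 genes (25.1%). Between the Control tissues 3122 of 14260 genes (21.9%) differed, and here most were higher in iWAT, with 1030 genes (7.22%) higher in BAT and 2092 (14.7%) in iWAT. The median log2 difference of all genes was -0.06 in Ai-α4KO and -0.01 in Control mice. Scaling set part of the balance, since the median moved to -0.22 without TMM factors, with 1024 Ai-α4KO genes then higher in BAT and 772 in iWAT, so that the BAT share of the calls went from 73.1% to 57%. The count higher in Ai-α4KO iWAT also fell to 301 without BAT library 5, 299 without iWAT library 3 and 278 without iWAT library 5. Without iWAT library 1 the counts were 1480 and 466. With the muscle score as a covariate they were 7 and 29. Several of those 29 had differed by less than 2-fold without the score, so they are not a part of the 454.

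Among 13979 genes tested in all comparisons, 567 of the 989 genes higher in Control BAT were higher in Ai-α4KO BAT too, which is 57.3% of the Control and 49.1% of the Ai-α4KO genes. Of 2061 genes higher in Control iWAT, 372 were higher in Ai-α4KO iWAT, or 18% of the Control but 87.5% of the Ai-α4KO genes. Most of the others kept their direction below the thresholds. Genes higher in Control BAT had a median log2 difference of 1.44 in Control and 1.28 in Ai-α4KO mice, and 97% had the same sign. For genes higher in Control iWAT the medians were -1.94 and -0.74, and 94.4% had the same sign. The shared counts depended on the scaling, since without TMM factors 400 genes were shared by BAT and 636 by iWAT, so that the larger count was then on the iWAT side. The count shared by iWAT was also 573 at an adjusted p below 0.05, 247 without Ai-α4KO BAT library 5 and 233 without Ai-α4KO iWAT library 5.

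The Control calls were also divided by the size of their fold change. Of the genes 2-fold to 4-fold higher in Control BAT, 396 of 754 (52.5%) had the same call in Ai-α4KO mice, and of those 4-fold to 16-fold higher, 134 of 181 (74%). On the iWAT side the same bins gave 124 of 1089 (11.4%) and 232 of 891 (26%). Above 16-fold, 37 of 54 (68.5%) BAT genes and 16 of 81 (19.8%) iWAT genes were shared. Across the 13979 genes the log2 differences of the genotypes, which share no library, gave Pearson's r = 0.70 and Spearman's rho = 0.75, given as a description since genes are not independent replicates.

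**Figure D1:**
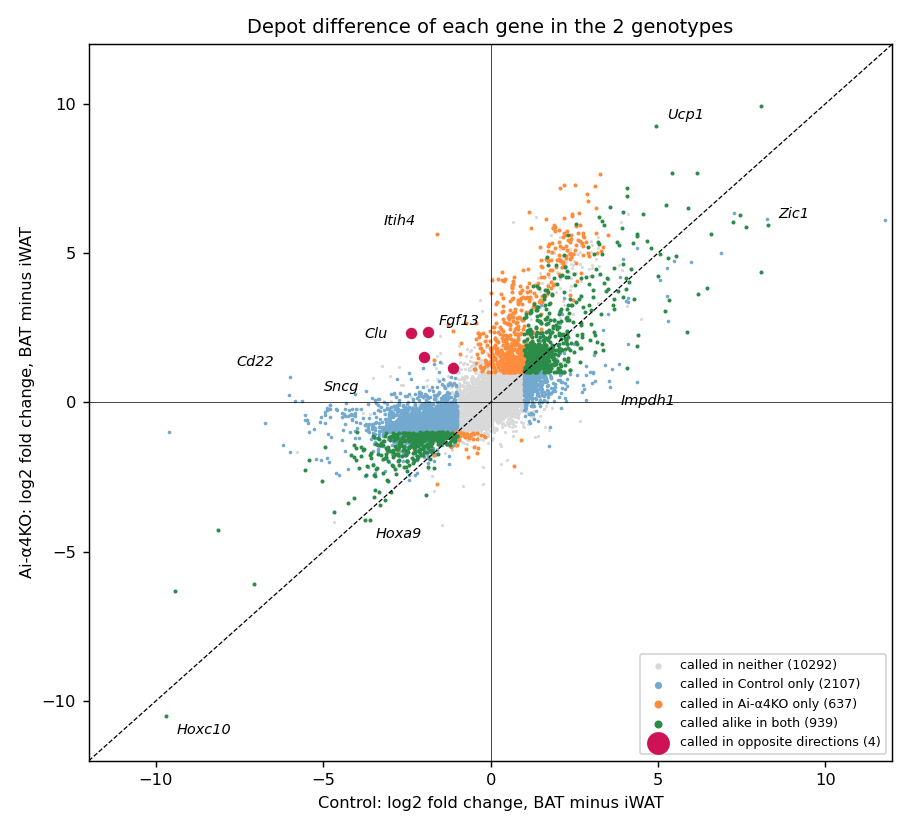
Depot differences in Control (horizontal) and Ai-α4KO (vertical) mice, as log2 fold changes of BAT over iWAT, for 13979 genes, coloured by where they were called. The 939 genes called alike in both genotypes have the same sign in each, while the 2107 genes called only in Control mice lie mostly on the iWAT side. All genes higher in Control iWAT had a median of -1.94 in Control and -0.74 in Ai-α4KO mice.

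A depot difference was taken to differ between genotypes only where the genotype by depot interaction passed at an adjusted p below 0.01. This was so for 740 of 15230 genes (4.86%), with BAT minus iWAT higher in Ai-α4KO mice for 496 (3.26%) and lower for 244 (1.6%). These included 356 of the 1685 genes called higher in iWAT in Control mice and not in Ai-α4KO mice, and 93 of the 422 such genes on the BAT side. The 356 iWAT genes had a median of the mean log2 CPM of 1.94 in Control BAT, 4.27 in Control iWAT, 5.14 in Ai-α4KO BAT and 5.73 in Ai-α4KO iWAT, so both tissues stood above the Control levels and BAT by more. The 93 BAT genes had medians of 6.01 in Control BAT and 4.98 in Ai-α4KO BAT, with 4.77 in iWAT of both genotypes. The count of 496 was 322 without Control BAT library 1, 309 without Control BAT library 3 and 853 without Ai-α4KO iWAT library 1. The count of 244 ran from 93 to 264 when 1 library was left out (93 without Ai-α4KO iWAT library 5).

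Each library was also placed on an axis from the mean of Control iWAT (0) to the mean of Control BAT (1), over 15230 genes. Ai-α4KO BAT libraries scored 0.38, 0.37, 0.50, 0.63 and 0.50, and Ai-α4KO iWAT libraries -0.03, -0.21, -0.33, -0.34 and -0.36. The tissues did not overlap. All Ai-α4KO BAT libraries scored below the Control BAT libraries (0.89 to 1.09). The Ai-α4KO iWAT libraries overlapped with Control iWAT (-0.16 to 0.12) through library 1, and the other 4 scored lower. Their difference of 0.73 had p = 0.0079 (exact permutation test, two-sided), the smallest p that 5 against 5 libraries allow. The value without Ai-α4KO iWAT library 1 was 0.79. In each Ai-α4KO tissue the library with the highest muscle share (BAT library 4, 8.41%, and iWAT library 1, 0.919%) also had the highest score. An effect of muscle RNA on the score was not tested. On genes called between the Control tissues alone the difference was 0.58. The root mean square distance between the tissue means was 1.21 on the log2 scale in Ai-α4KO and in Control mice.

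**Figure D2:**
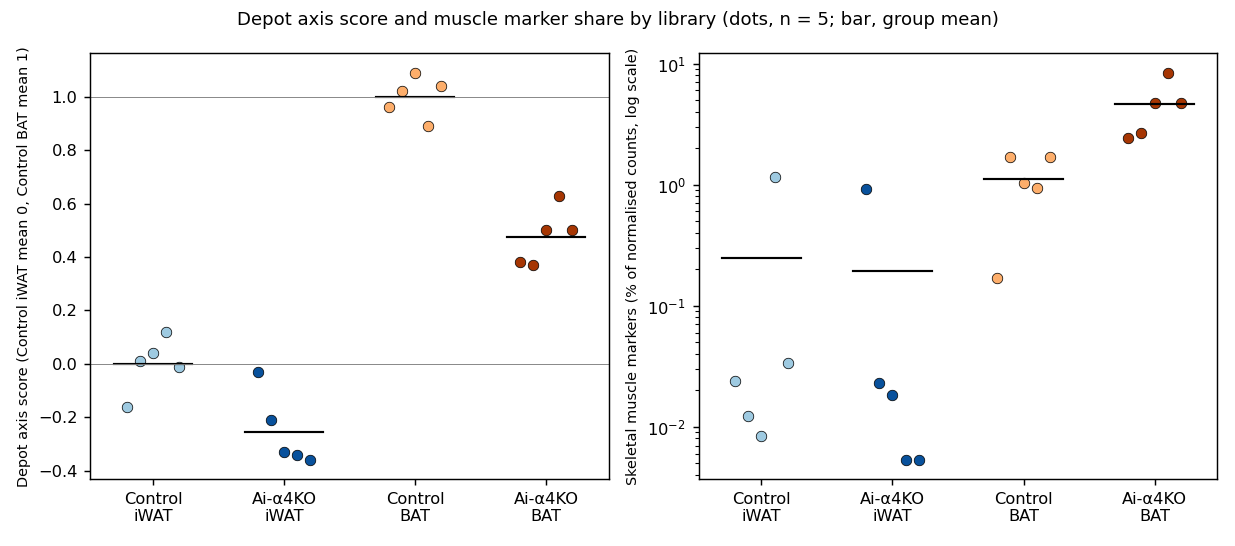
Depot axis score (no unit, Control iWAT mean 0 and Control BAT mean 1) and the percent of counts from skeletal muscle markers (log axis) for each of the 20 libraries by group. Ai-α4KO BAT scored 0.37 to 0.63 and Ai-α4KO iWAT -0.36 to -0.03, and Ai-α4KO BAT held the highest muscle share, 2.43% to 8.41%.

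Most thermogenic genes were still higher in BAT. Of 27 listed thermogenic genes, 23 were higher in Ai-α4KO BAT and 0 in iWAT (8.4% and 3.09% of all genes), with a median log2 difference of 3.27 (-0.06 over all genes). In Control mice the count was 25 and the median 3.08. Summed over the list, Ai-α4KO BAT had 2966 to 6102 CPM and Ai-α4KO iWAT 262 to 361 CPM, below the 13075 to 18721 CPM of Control BAT and the 739 to 2128 CPM of Control iWAT. Levels were thus lower in both tissues of Ai-α4KO mice, and the gap between tissues was present. The count was 23 to 24 in all 10 fits that left out 1 library. In bulk tissue, fewer cells of a type and less RNA per cell cannot be told apart.

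Ucp1 (chr8:83290348-83298456, mm10) encodes the proton carrier that uncouples brown fat mitochondria. It was at 706, 657, 755, 1400 and 1628 CPM in Ai-α4KO BAT and at 1.86, 2.53, 0.709, 1.95 and 1.69 CPM in Ai-α4KO iWAT. Every BAT library lay far above every iWAT library. The log2 difference was 9.26 (standard error 0.49, adjusted p = 3.05e-06), against 4.94 in Control mice, where BAT had 4094 to 6673 CPM and iWAT 5.13 to 314 CPM. The interaction was 4.21 on the log2 scale (adjusted p = 0.0088), and it passed in 5 of the 20 fits that left out 1 library, with values of 3.85 to 4.53 and an adjusted p of at most 0.018. With the muscle score as a covariate the difference was 8.78 (adjusted p = 0.0022).

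Dio2 (chr12:90724552-90738438), the deiodinase that makes active thyroid hormone in brown fat, was at 184, 198, 106, 96 and 149 CPM in Ai-α4KO BAT. In Ai-α4KO iWAT it was at 2.23, 2.23, 0.814, 1.88 and 0.882 CPM. The BAT libraries lay in the range of Control BAT (31.7 to 160 CPM) or above it, and the iWAT libraries at the low end of Control iWAT (1.35 to 21.7 CPM) or below it. The log2 fold change was 6.55 (standard error 0.38, adjusted p = 4.3e-06). Slc27a2 (chr2:126553024-126588243), a very long chain acyl-CoA synthetase, was at 25.8, 24.3, 25.9, 52.8 and 41.2 CPM in BAT and at 0.143, 0.0683, 0.184, 0.197 and 0.259 CPM in iWAT of Ai-α4KO mice. Its difference of 7.67 (adjusted p = 1.87e-06) was among the 10 largest on the BAT side, although Control BAT stood higher, at 204 to 319 CPM.

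Promoters of 4 genes of this list are shown because each holds a motif of a factor known for cAMP signalling, mitochondrial genes or muscle genes. The sequences are RefSeq (GRCm38.p6), the 250 bases before the start, with the motif in capitals. They are Ucp1 (chr8:83290098-83290347, plus strand, cAMP response core TGACG at -147 from the start), Dio2 (chr12:90739039-90739288, minus strand, full cAMP response element TGACGTCA at -95, with a RefSeq start 600 bases upstream of the start in the deposited table), Slc27a2 (chr2:126552774-126553023, plus strand, the estrogen-related receptor motif AAGGTCA on the other strand at -220) and Esrrg (chr1:187608756-187609005, plus strand, the motif of the muscle factor MEF2 at -22).
Ucp1: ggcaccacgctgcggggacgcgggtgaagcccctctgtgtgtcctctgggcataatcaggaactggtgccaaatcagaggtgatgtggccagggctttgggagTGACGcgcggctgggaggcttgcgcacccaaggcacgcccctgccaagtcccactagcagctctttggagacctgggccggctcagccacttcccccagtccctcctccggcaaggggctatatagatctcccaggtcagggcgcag
Dio2: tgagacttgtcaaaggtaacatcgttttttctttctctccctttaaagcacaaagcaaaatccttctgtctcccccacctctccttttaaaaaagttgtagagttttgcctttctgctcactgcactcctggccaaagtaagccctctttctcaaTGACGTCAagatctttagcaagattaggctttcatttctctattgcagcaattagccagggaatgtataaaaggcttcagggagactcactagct
Slc27a2: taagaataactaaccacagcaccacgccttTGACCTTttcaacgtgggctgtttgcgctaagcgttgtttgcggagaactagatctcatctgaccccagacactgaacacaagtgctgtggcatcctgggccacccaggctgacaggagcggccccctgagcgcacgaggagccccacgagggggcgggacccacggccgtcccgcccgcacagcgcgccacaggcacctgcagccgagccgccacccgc
Esrrg: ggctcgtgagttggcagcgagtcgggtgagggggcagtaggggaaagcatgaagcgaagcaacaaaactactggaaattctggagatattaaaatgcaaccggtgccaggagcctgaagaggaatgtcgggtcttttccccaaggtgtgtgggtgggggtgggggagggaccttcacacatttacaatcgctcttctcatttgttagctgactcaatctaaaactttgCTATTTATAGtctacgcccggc

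Both strands of 27025 promoters of this length were searched. TGACG, which TGACGTCA contains, was in 17.9% of all, in 24.1% of those of genes higher in Ai-α4KO BAT (222 of 920) and in 25.9% of those of genes tested. TGACGTCA was in 1.62% of all, 2.62% of those tested and 2.93% of the Ai-α4KO BAT set, and AAGGTCA in 4.05%, 2.89% and 4.35%. The MEF2 type motif, with the letters that stand in capitals in the Esrrg sequence, was in 0.144% of all, 0.183% of those tested, 1.09% (10 of 920) of those higher in Ai-α4KO BAT, 0.259% of those higher in Control BAT and 0 of 323 higher in Ai-α4KO iWAT. The 10 genes were Asb18, Esrrg, Gm826, Synpo2, Ppp1r3a, Clcn1, Kbtbd12, Asb16, Lrrc14b and Ndrg2. Several of these are known from skeletal muscle, while the motif was in 0 of 19 promoters of the skeletal muscle list. Among the thermogenic list promoters TGACG was in 5 of 21 (23.8%), and TGACGTCA, AAGGTCA and the MEF2 type motif in 1 of 21 each. The promoters shown were picked for their motifs and do not stand for the list. A match is a description of these letters and not of a bound site.

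Other called genes of the list included a coactivator, a lipid droplet protein, an elongase and a secreted factor. Ppargc1a, the coactivator of mitochondrial biogenesis, was at 81.5, 87.5, 56.6, 81.8 and 39.7 CPM in Ai-α4KO BAT and 4.57, 4.42, 3.36, 6.73 and 3.94 CPM in Ai-α4KO iWAT. The tissues were well separated, with BAT near the Control BAT range (45.2 to 101 CPM) and iWAT below the Control iWAT range (13.6 to 24.4 CPM). Its log2 difference was 3.96 (adjusted p = 9.75e-06) against 1.99 in Control mice, and the interaction of 1.89 (adjusted p = 0.0027) passed in all 20 fits that left out 1 library. Cidea, a lipid droplet protein of brown adipocytes, was at 426 to 901 CPM in BAT and 2.63 to 10.2 CPM in iWAT (6.37 on the log2 scale, adjusted p = 2.21e-05). Elovl3, a fatty acid elongase induced by cold, was at 10.8 to 69.9 CPM in BAT and 0.0778 to 0.364 CPM in iWAT (7.19, adjusted p = 5.12e-05). Bmp8b, a secreted factor of brown fat, was at 7.11 to 21 CPM and 0.0537 to 0.273 CPM (6.49, adjusted p = 1.33e-05), close to the Control BAT range of 5.33 to 16 CPM.

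The 4 genes of the list that were not called were transcription factors and a secreted factor. Prdm16, a determinant of brown fate, was at 7.49 to 10 CPM in Ai-α4KO BAT and 4.2 to 5.85 CPM in Ai-α4KO iWAT. These libraries did not overlap, and the log2 difference of 0.97 (adjusted p = 0.000766) missed only the 2-fold limit. Ebf2, an early brown lineage factor, overlapped between the tissues (19.1 to 38 CPM and 13.8 to 33.1 CPM, log2 difference 0.35), while the Control difference was 1.12. Irf4 and Nrg4 had log2 differences of -0.77 and 0.67.

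With the muscle score as a covariate, 5 of the 7 genes still higher in Ai-α4KO BAT were on the thermogenic list. They were Ucp1, Slc27a2 (7.41, adjusted p = 0.0028), Dio2 (6.14, adjusted p = 0.0027), Ppargc1a (4.17, adjusted p = 0.0061) and the glycerol kinase gene Gyk (2.91, adjusted p = 0.0019). Adtrp, a hydrolase of fatty acid esters (46.4 to 73.5 CPM in BAT, 7.16 to 10.4 CPM in iWAT), and Kctd1, a transcriptional repressor (12.5 to 16.6 and 1.22 to 1.96 CPM), made up the 7 and are named here after their values were seen. The rest of the 23 fell short of the threshold in that fit. Among them were Cidea (5.81, adjusted p = 0.02), Bmp8b (6.46, adjusted p = 0.023), Elovl3 (5.79, adjusted p = 0.075) and Acot11 (2.27, adjusted p = 0.076), as well as Fabp3 (3.01, adjusted p = 0.13), Cox8b (4.13, adjusted p = 0.088) and Esrrg (3.78, adjusted p = 0.13), which muscle also expresses. Of the 21 lists, the thermogenic (5 genes), patterning (4 genes) and cytokine lists (1 gene, Cxcl5, higher in iWAT) had members called in that fit. The Fabp3 level in iWAT library 1 was 44 CPM, against 2.44 to 4.1 CPM in the other Ai-α4KO iWAT libraries.

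**Figure D3:**
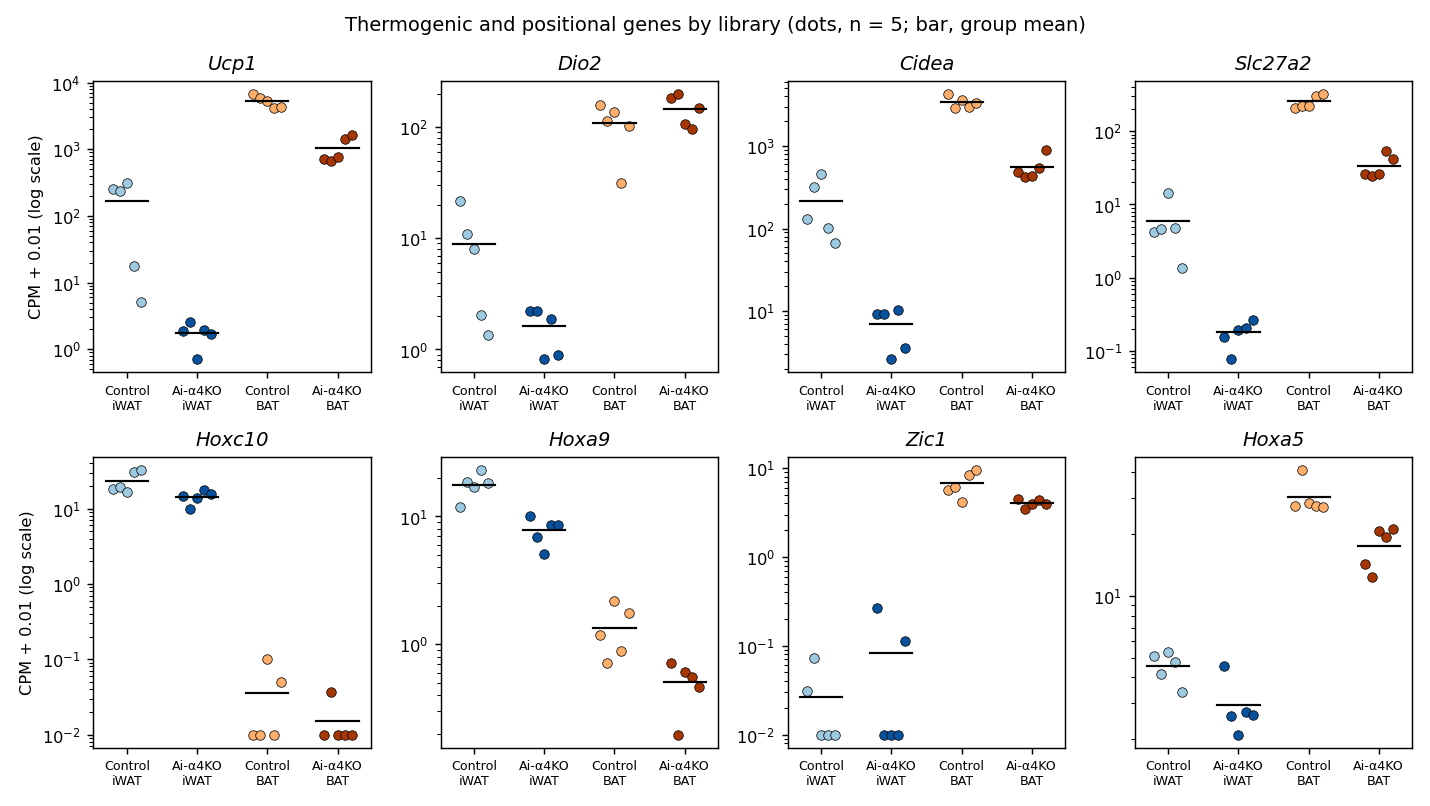
Levels in CPM (log axis, 0.01 CPM added) of thermogenic (Ucp1, Dio2, Cidea, Slc27a2) and patterning genes (Hoxc10, Hoxa9, Zic1, Hoxa5) in each library of the 4 groups, 5 points a group. The Ai-α4KO tissues are separated for all 8 genes, as for Ucp1, at 657 to 1628 CPM in BAT and 0.709 to 2.53 CPM in iWAT.

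Several patterning transcription factors were still restricted to a depot. Hoxc10 (chr15:102966796-102971897), a posterior homeobox gene, was at 0, 0.0267, 0, 0 and 0 CPM in Ai-α4KO BAT and at 14.7, 9.77, 13.7, 17.7 and 15.4 CPM in Ai-α4KO iWAT. A single count was found in all BAT libraries together, which gives a ratio of 2247 (95% counting interval 403 to 88736). Hoxc9 (chr15:102977032-102984444) was at 0.0267 to 0.0965 CPM in BAT and 2.8 to 5.94 CPM in iWAT, Hoxa10 at 0 to 0.244 and 5.54 to 10.1 CPM, and Hoxa9 at 0.187 to 0.705 and 5.12 to 10 CPM. These iWAT ranges lay below the Control iWAT ranges, which were 16.4 to 32.5 CPM for Hoxc10, 7.18 to 9.38 CPM for Hoxc9, 10.3 to 18 CPM for Hoxa10 and 11.8 to 23.1 CPM for Hoxa9, with overlap only for Hoxc10. The log2 differences of Hoxc9, Hoxa10 and Hoxa9 were -6.06, -6.32 and -3.93 (adjusted p = 6.04e-06, 8.41e-05 and 5.73e-05). All 4 of these genes were still called with the muscle score as a covariate, with -10.32, -6.31, -6.60 and -4.23 for Hoxc10, Hoxc9, Hoxa10 and Hoxa9.

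The anterior genes had the opposite order. Zic1 (chr9:91360345-91365799), a zinc finger factor of dorsal and axial tissue, was at 4.47, 3.42, 3.98, 4.34 and 3.93 CPM in Ai-α4KO BAT and at 0.257, 0, 0, 0 and 0.104 CPM in Ai-α4KO iWAT. It was close to absent from iWAT in both genotypes (0 to 0.0621 CPM in Control). Its neighbour Zic4 was at 0.339 to 0.588 CPM in BAT and 0 to 0.0571 CPM in iWAT. Hoxa5 was at 14.2, 12.4, 20.7, 19.3 and 21.2 CPM in BAT and 4.54, 2.6, 2.1, 2.7 and 2.62 CPM in iWAT, a log2 difference of 2.64 (standard error 0.25, adjusted p = 8.21e-05) beside 2.70 in Control mice. Hoxa4 differed by 3.10 beside 3.01 (interaction adjusted p = 0.998). Within the HoxA cluster on chromosome 6, Hoxa4 and Hoxa5 were thus higher in BAT and Hoxa9 and Hoxa10 in iWAT.

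Of the 76 patterning factors listed 48 were tested, with 13 higher in Ai-α4KO BAT, 5 in iWAT (8.4% and 3.09% of all genes) and a median of 0.47. The BAT genes included Hoxa4, Hoxa5, Hoxc4, Hoxd8, Hoxd9, Zic1, Zic4, Irx3, Irx5, Tbx2 and Tbx15, and the fifth iWAT gene was Shox2 (1.63 to 5.34 CPM in BAT, 7.15 to 20.4 CPM in iWAT). In Control mice 5 were higher in BAT and 15 in iWAT. The BAT count was 8 to 16 and the iWAT count 4 to 7 when 1 library was left out, and without TMM factors they were 11 and 8. Shox2 lost its call in 6 of 10 such fits (-1.81 to -1.49, adjusted p of 0.012 to 0.016) and was -0.75 with the muscle score (adjusted p = 0.61). No BAT gene of the list was called with the muscle score as a covariate. In that fit the differences were 3.67 for Zic1, 3.49 for Zic4, 2.52 for Hoxa4 and 1.78 for Hoxa5. Without the score they were 5.92, 4.38, 3.10 and 2.64. Hoxd9, of the same paralogue group as Hoxa9 and Hoxc9, had the opposite order to these in Ai-α4KO mice. It was at 2.01, 3.64, 6.98, 8.49 and 5.9 CPM in Ai-α4KO BAT, 2.68 CPM in iWAT library 1 and 0.709 to 0.985 CPM in the other Ai-α4KO iWAT libraries, so that the tissues overlapped through library 1 of each. Its log2 difference was 2.19 against -0.35 in Control mice, and 0.45 with the muscle score (adjusted p = 0.77), and it was not called in 7 of 10 fits that left out 1 library (1.95 to 2.15, adjusted p of 0.012 to 0.015). The interaction of 2.45 (adjusted p = 0.005) passed in 19 of 20 fits that left out 1 library. Without Control iWAT libraries 1 and 4 the Hoxd9 interaction had an adjusted p of 0.016. Its neighbour Hoxd8 differed by 2.16 against 0.34, with an interaction that missed the threshold (adjusted p = 0.013) and a value of 1.58 with the muscle score (adjusted p = 0.34).

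Tbx15, a T-box factor of white and beige adipocytes and of some muscle fibres, differed between tissues in Ai-α4KO mice and not in Control mice. It was at 53.5, 59.7, 107, 163 and 79.3 CPM in Ai-α4KO BAT, 28.6, 20.7, 26.6, 27.2 and 34.6 CPM in Ai-α4KO iWAT, 7.15 to 32.2 CPM in Control BAT and 19.3 to 36.8 CPM in Control iWAT. Only Ai-α4KO BAT lay outside the range of the other groups, and its highest library, 4, also had the highest muscle share. The interaction of 1.99 (adjusted p = 0.0088) passed in 9 of 20 fits that left out 1 library, and the tissue difference of 1.81 (adjusted p = 0.00113) was 1.55 with the muscle score (adjusted p = 0.27).

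Mitochondrial genes were higher in BAT almost throughout. Of 22 genes of the citrate cycle and pyruvate dehydrogenase, 20 were higher in Ai-α4KO BAT (8.4% of all genes), with a median of 1.65 beside 1.63 in Control mice, and the others were Suclg2 (0.97) and Pcx (0.45). Of 79 tested genes of oxidative phosphorylation (OXPHOS), 73 were higher in BAT, with a median of 1.59 beside 1.44. The OXPHOS list shares Sdha to Sdhd with the citrate cycle list, and Cox7a1 and Cox8b with the thermogenic list. Leaving out 1 library gave 20 to 21 citrate cycle and 66 to 74 OXPHOS genes. Interaction passed for 0 citrate cycle genes and for 2 OXPHOS genes (Cox7a1 and Atp5g3). With the muscle score, 0 genes of either list were called, and muscle is itself rich in these transcripts.

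Citrate synthase (Cs), the entry enzyme of the cycle, was at 808, 773, 902, 1057 and 1093 CPM in Ai-α4KO BAT and at 441, 374, 316, 392 and 318 CPM in Ai-α4KO iWAT. All BAT libraries were above all iWAT libraries and below every Control BAT library (3209 to 3375 CPM). The log2 difference was 1.38 (standard error 0.16, adjusted p = 0.000213) beside 1.57 in Control mice. Sdha, of complex II, was at 826 to 1219 CPM in BAT and 305 to 381 CPM in iWAT, and Atp5b, the catalytic β subunit of ATP synthase, at 2092 to 3251 and 869 to 1333 CPM. The log2 difference between tissues was 1.65 in Ai-α4KO and 1.38 in Control mice for Sdha, and 1.41 and 1.46 for Atp5b, with no interaction past the threshold for either. The Ai-α4KO values were 0.95 for Cs, 1.30 for Sdha and 0.81 for Atp5b in the fit with the muscle score (adjusted p = 0.15, 0.086 and 0.23).

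Pairs of isoforms were set side by side in FPKM, which corrects for transcript length. Cox7a1, the heart, muscle and brown fat form of a cytochrome c oxidase subunit, was at 550 ± 256 FPKM in Ai-α4KO BAT and 10.2 ± 2.66 FPKM in Ai-α4KO iWAT (SD, n = 5 each), and its general counterpart Cox7a2 at 435 ± 94.5 and 176 ± 23.8 FPKM. In BAT the forms stood at like levels, while in iWAT nearly all was Cox7a2. The count model gave log2 differences of 5.94 for Cox7a1 and 1.47 for Cox7a2. In Control mice Cox7a1 differed by 3.40, and the interaction of 2.44 (adjusted p = 0.0051) passed in 18 of 20 fits that left out 1 library. Cox6a2, the muscle form of another subunit, was at 134 to 609 FPKM in Ai-α4KO BAT against 8.68 to 95.1 FPKM in Control BAT.

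Of 22 genes of fatty acid oxidation, 15 were higher in Ai-α4KO BAT and 1 in iWAT (8.4% and 3.09% of all genes, median 1.27, in Control mice 18 and 1 with a median of 1.78). The gene higher in iWAT was Cpt1a, the liver form of the mitochondrial carnitine palmitoyltransferase. In FPKM Cpt1a was at 18.5 ± 3.25 in Ai-α4KO BAT and 42 ± 8.4 in Ai-α4KO iWAT, and the muscle form Cpt1b at 82 ± 20.2 and 8.35 ± 3.64 (SD, n = 5 each). The predominant form thus differed between the tissues, with Cpt1b in BAT and Cpt1a in iWAT. In Control iWAT they were at 11.5 ± 2.16 (Cpt1a) and 15.8 ± 9.79 FPKM (Cpt1b), with overlapping ranges. Cpt1a lost its call in 5 of 10 fits that left out 1 library, since its difference of -1.04 (adjusted p = 0.000661) then fell just short of 2-fold (-0.99 without BAT library 5 or iWAT library 3, 4 or 5, and a like value without BAT library 4). With the muscle score Cpt1a was -0.53 (adjusted p = 0.3), and Cpt1b was 2.43 (adjusted p = 0.055), against 3.47 without the score.

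Acsl5, an acyl-CoA synthetase, was the gene of this list whose depot difference was smaller in Ai-α4KO mice. It was at 190, 194, 213, 201 and 226 CPM in Ai-α4KO BAT and 141, 174, 185, 160 and 176 CPM in Ai-α4KO iWAT. The tissues were close to each other, whereas Control BAT had 446 to 1280 CPM and Control iWAT 100 to 154 CPM. The fitted log2 difference was 0.34 against 2.74, and the interaction of -2.48 (adjusted p = 9.9e-05) passed in all 20 fits that left out 1 library.

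Some genes of fatty acid synthesis were higher in BAT. Of 19 listed, 7 were higher in Ai-α4KO BAT, beside 8.4% of all genes (Acly, Acaca, Acacb, Scd1, Elovl6, Mlxipl and Thrsp) and 0 in iWAT, with a median of 0.89, while in Control mice 2 were higher in BAT and 1 in iWAT with a median of 0.27. The interaction passed for 0 of them. Thrsp, a lipogenic regulator, was at 149 to 458 CPM in Ai-α4KO BAT and 21.4 to 91.6 CPM in Ai-α4KO iWAT (2.65, adjusted p = 0.000961), far below the 1645 to 4866 CPM of the Control libraries. Of 20 general adipocyte genes, 2 were higher in BAT (8.4% of all genes), namely Slc2a4, the insulin-responsive glucose transporter, at 163 to 323 CPM in BAT and 35.4 to 90.1 CPM in iWAT (2.16, adjusted p = 0.000523), and Gpd1, which makes glycerol phosphate (2.26, adjusted p = 0.000747). Thrsp and Slc2a4 differed by 1.22 and 1.15 in the fit with the muscle score (adjusted p = 0.32 and 0.25). The adipocyte list had a median of -0.05, or 0.12 without iWAT library 1. Adipoq, the adiponectin gene, overlapped between tissues, with 440 to 840 CPM in BAT and 488 to 971 CPM in iWAT.

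**Figure D4:**
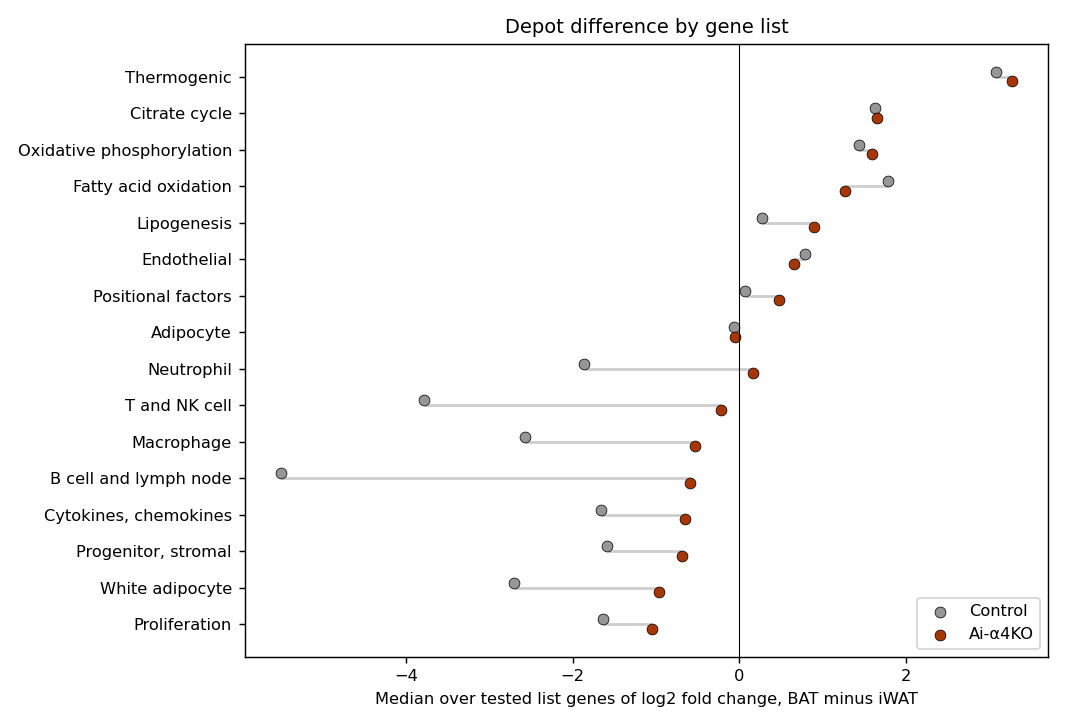
Median log2 difference of BAT over iWAT for each gene list in Ai-α4KO and in Control mice, 1 point a genotype. Thermogenic (3.27 and 3.08), OXPHOS (1.59 and 1.44) and citrate cycle genes (1.65 and 1.63) had similar medians in both genotypes, while macrophage genes went from -2.57 in Control to -0.53 in Ai-α4KO mice and white adipocyte genes from -2.70 to -0.96.

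In Control mice 10 of 14 listed genes of white adipocytes were higher in iWAT and 0 in BAT (14.7% and 7.22% of all genes, median -2.70). In Ai-α4KO mice 3 were higher in iWAT and 0 in BAT (3.09% and 8.4% of all genes), with a median of -0.96. Those were Lep, the satiety hormone leptin (15.6 to 67.4 CPM in BAT and 85.3 to 179 CPM in iWAT, log2 difference -1.64, adjusted p = 0.00609), Slc7a10, a neutral amino acid transporter (-1.68), and Ccdc80, a secreted matrix protein (-1.57, adjusted p = 0.000785). Ccdc80 was called in all 10 fits that left out 1 library. Lep was not called in 7 of them (-1.70 to -1.44, adjusted p of 0.01 to 0.017), nor Slc7a10 in 2 (-1.59 without BAT library 4 and -1.56 without iWAT library 4). The interaction passed for 3 of the 14 (4.86% of all genes), Sncg, Wfdc21 and Trabd2b, so that a smaller depot difference was not shown for the others.

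Sncg, γ-synuclein of white adipocytes and nerve, was the clearest of these. It was at 286, 279, 230, 213 and 238 CPM in Ai-α4KO BAT and 270, 166, 190, 353 and 247 CPM in Ai-α4KO iWAT. The tissues overlapped, and all Ai-α4KO BAT libraries were above all Control BAT libraries (19.5 to 37.5 CPM), while Control iWAT had 162 to 539 CPM. The log2 difference was 0.07 (adjusted p = 0.804) against -3.46 in Control mice. Without TMM factors it was -0.08, and 0.00 by upper-quartile scaling. The interaction of 3.45 (adjusted p = 5.3e-05) passed in all 20 fits that left out 1 library. For Wfdc21 it was 2.29 (12 of 20 fits) and for Trabd2b, a Wnt protease, 1.75 (20 of 20 fits). Retn, the hormone resistin, was at 68.5 to 340 CPM in BAT and 336 to 489 CPM in iWAT of Ai-α4KO mice, with an adjusted p of 0.048.

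Of 8 beige markers, 1 was higher in Ai-α4KO BAT (P2rx5, 1.81, adjusted p = 0.00012) and 2 were higher in iWAT, beside 8.4% and 3.09% of all genes. These were Tmem26 (0.515 to 1.84 CPM in BAT and 2.48 to 6.41 CPM in iWAT, -1.91, adjusted p = 0.0017) and Ear2, an eosinophil-type ribonuclease (-1.60). Ear2 was not called in 7 of 10 fits that left out 1 library (adjusted p of 0.011 to 0.018). Tmem26 differed by -0.67 and Ear2 by -0.95 in the fit with the muscle score (adjusted p = 0.53 and 0.51). The median was -0.17, or -0.22 without iWAT library 1.

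Macrophage genes were higher in iWAT than in BAT of Control mice almost without exception, and the interaction passed for 12 of 20 (4.86% of all genes), all toward BAT in Ai-α4KO mice. Of the 20 genes, 3 were higher in Ai-α4KO iWAT (3.09% of all genes) and 0 in BAT (median -0.53), against 19 and 0 in Control mice (14.7% and 7.22% of all genes, median -2.57). Summed over the list, Ai-α4KO BAT had 5948 to 9905 CPM and Ai-α4KO iWAT 10334 to 13849 CPM, where Control BAT had 379 to 874 CPM and Control iWAT 1968 to 3626 CPM. The sum was above Control in both tissues and the tissues did not overlap. When 1 library was left out, 0 to 2 genes were higher in BAT and 2 to 6 in iWAT (2 and 4 without iWAT library 1).

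Cd68, a lysosomal glycoprotein of phagocytes, was at 159, 226, 131, 124 and 173 CPM in Ai-α4KO BAT and 261, 199, 237, 181 and 201 CPM in Ai-α4KO iWAT. The tissues overlapped. Control BAT had 5.89 to 14.7 CPM and Control iWAT 34.6 to 98.3 CPM. The log2 fold change was -0.36 (adjusted p = 0.117) against -2.60 in Control mice, with an interaction of 2.15 (adjusted p = 0.0009). Emr1, which encodes the F4/80 antigen, gave -0.49 (adjusted p = 0.0199) against -2.38 and an interaction of 1.79, and C1qa, of the complement C1q complex, -0.51 (adjusted p = 0.06) against -2.56 and 1.96. For all 3 genes the interaction passed in each of the 20 fits that left out 1 library.

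Trem2, a lipid receptor of macrophages, was at 22.7, 33.7, 20, 20.6 and 40.7 CPM in Ai-α4KO BAT and 33.8, 16.8, 14.3, 8.5 and 9.36 CPM in Ai-α4KO iWAT. Apart from iWAT library 1 the BAT libraries were above the iWAT libraries, and the log2 difference of 0.78 did not pass (adjusted p = 0.122). The interaction was 3.49 (adjusted p = 0.0045). The 3 genes higher in Ai-α4KO iWAT were Clec10a, a galactose-type lectin, with 120 to 238 CPM in BAT and 341 to 532 CPM in iWAT (-1.36, adjusted p = 0.000446), Itgam, the integrin CD11b, with 180 to 314 and 441 to 629 CPM (-1.12, adjusted p = 0.00068), and Lyve1, a hyaluronan receptor also of lymphatic vessels (-1.75). Lyve1 was not called without BAT library 3 or 4 or without iWAT library 3 or 5 (-1.76 to -1.56).

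Of 38 tested cytokine and chemokine genes, 2 were higher in Ai-α4KO BAT and 2 in Ai-α4KO iWAT (8.4% and 3.09% of all genes, median -0.65). In Control mice 17 of 29 were higher in iWAT (14.7% of all genes, median -1.66). The interaction was toward BAT for 7 and toward iWAT for 1 (3.26% and 1.6% of all genes). Ccl8, a monocyte chemokine, was at 504, 898, 525, 466 and 1143 CPM in Ai-α4KO BAT and 536, 1237, 1062, 863 and 621 CPM in Ai-α4KO iWAT. The tissues covered the same range, and Control BAT had 1.35 to 8.14 CPM and Control iWAT 46.1 to 157 CPM. Its interaction was 4.01 (adjusted p = 0.00065). Csf3, the granulocyte growth factor G-CSF, was at 0.579 to 2.78 CPM in BAT and 4.4 to 18.7 CPM in iWAT (-2.42, adjusted p = 0.00353), and Lif, an interleukin 6 family cytokine, at 1.67 to 2.93 and 4.05 to 8.95 CPM (-1.50, adjusted p = 0.00131). Cxcl14 (1.40, adjusted p = 0.00246) and Cx3cl1 (2.06, adjusted p = 0.000806) were higher in BAT. Lif differed by -0.79 and Cx3cl1 by 0.90 in the fit with the muscle score (adjusted p = 0.39 and 0.35). Without TMM factors 2 genes were higher in BAT and 6 in iWAT.

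**Figure D5:**
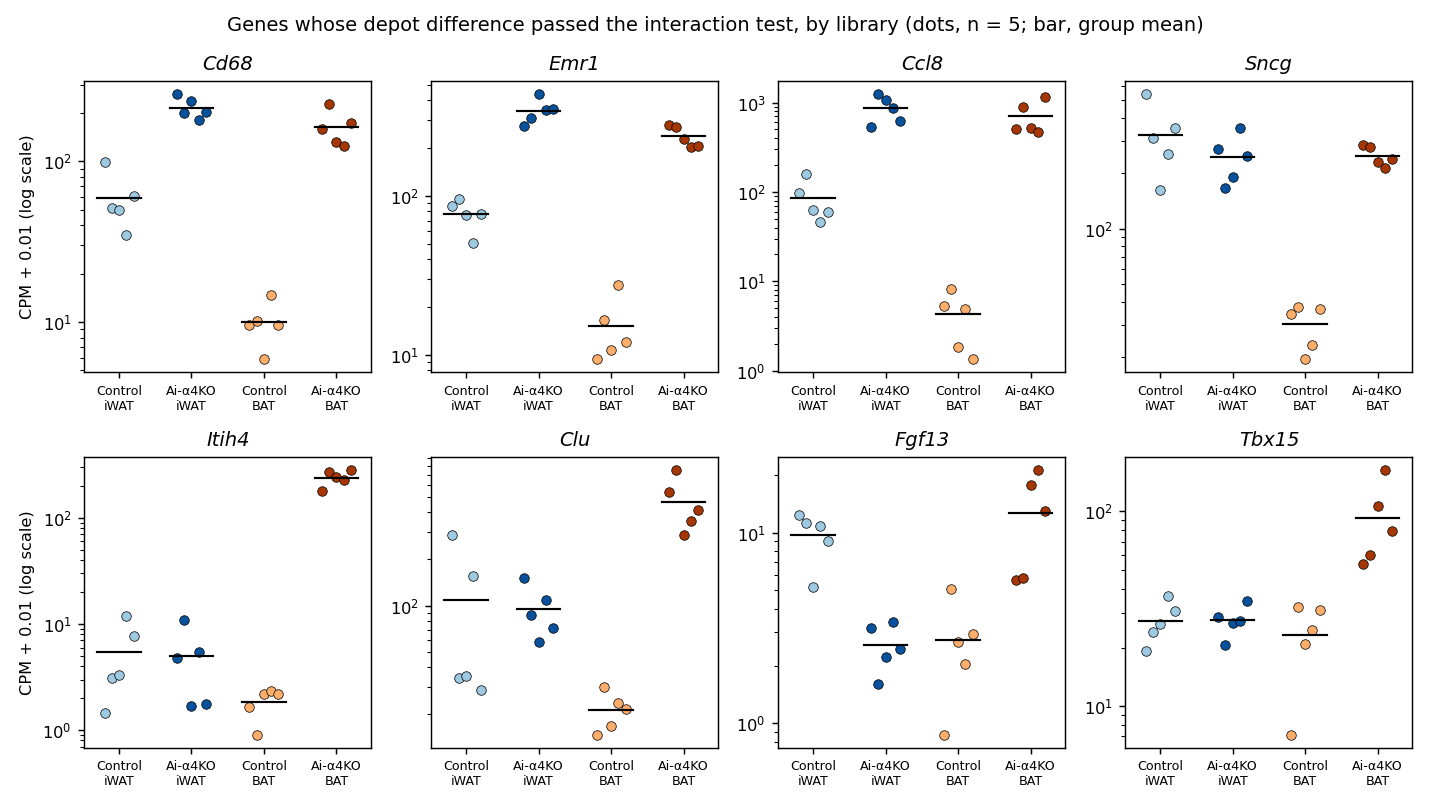
Levels in CPM (log axis) of genes whose depot difference passed the genotype by depot interaction, in each library of the 4 groups, 5 points a group. Cd68, Emr1, Ccl8 and Sncg lie close together in the Ai-α4KO tissues and apart in Control tissues, while Itih4, Clu, Fgf13 and Tbx15 are highest in Ai-α4KO BAT, as for Itih4 with 178 to 283 CPM there and 1.68 to 11 CPM in Ai-α4KO iWAT.

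Markers of other cells that the tissues could hold were counted beside the 11.5% of all genes called between the Ai-α4KO tissues, in either direction. Between the Control tissues 21.9% of all genes were called, and 14.7% were higher in iWAT. Neutrophil genes had 0 of 9 called (median 0.16, and 0.00 without TMM factors) against 3 of 8 higher in iWAT of Control mice. Of T and NK cell genes 1 of 13 (Cd2, -1.57) was higher in iWAT (median -0.22), against 10 of 13 in Control mice. The summed T and NK cell genes were at 311 and 342 CPM in Control iWAT libraries 1 and 4 and at 17.6 to 23.5 CPM in the other Control iWAT libraries. B cell and lymph node genes had 0 of 13 called (median -0.59), and 12 of 14 were higher in Control iWAT, where libraries 1 and 4 held the high B cell sums. Endothelial genes had 2 of 12 higher in BAT (Flt1 and Tie1, median 0.65), and 0 without TMM factors. Among Schwann cell and nerve genes 1 of 9 was higher in BAT (Th, the enzyme of catecholamine synthesis, 4.64, median -0.25). The epithelial genes had 1 of 4 higher in iWAT (Krt18) and the mesothelial genes 1 of 2 (Krt19, -3.93), with 0 for either without iWAT library 1.

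In Control mice 15 of 20 progenitor and stromal genes were higher in iWAT (14.7% of all genes, median -1.59). In Ai-α4KO mice 3 were higher in iWAT (3.09% of all genes) and 0 in BAT (median -0.69). Fn1, fibronectin, was at 418 to 715 CPM in BAT and 743 to 2239 CPM in iWAT (-1.53, adjusted p = 0.00211). Pdgfra, the receptor that marks adipocyte progenitors, was at 67.2 to 105 and 118 to 251 CPM (-1.11, adjusted p = 0.00147, and -0.97 without iWAT library 1, under the 2-fold limit). Pi16, of a multipotent fibroblast population, overlapped, at 46.4 CPM in iWAT library 2 and 297 to 396 CPM in the other iWAT libraries, and was called in 1 of 10 fits that left out a library. The list count was 1 to 7 over these fits (1 without iWAT library 1), 7 without TMM factors and 0 with the muscle score. With that score Fn1 was -1.76, Pdgfra -1.44 and Pi16 -2.19 (adjusted p = 0.13, 0.074 and 0.2), so the differences were no smaller.

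Of 15 proliferation genes, 10 were higher in Ai-α4KO iWAT and 0 in BAT (3.09% and 8.4% of all genes, median -1.05). In Control mice 12 were higher in iWAT (14.7% of all genes, median -1.64), and the interaction passed for 0 of the 15. Mki67, the Ki-67 antigen of cycling cells, was at 66.1, 67.2, 70.9, 59.6 and 39.2 CPM in Ai-α4KO BAT and 80.1, 159, 150, 135 and 165 CPM in Ai-α4KO iWAT. The tissues did not overlap, and every Ai-α4KO library was above its Control tissue (2.46 to 5.83 CPM in BAT and 14.4 to 25 CPM in iWAT). The log2 difference was -1.14 (adjusted p = 0.00182). Top2a, a topoisomerase of dividing cells, gave -1.23 (adjusted p = 0.00228). The list count was 5 to 11 when 1 library was left out. In the fit with the muscle score 0 genes of the list were called, and the differences were -0.32 for Mki67 and -0.43 for Top2a (adjusted p = 0.65 and 0.6).

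The 10 largest differences on the BAT side included Ucp1 and Slc27a2 of the thermogenic list. The others were Mrln, Tecrl, A530050N04Rik, BC048679, Efcab6, Zp2, Asb18 and Gm13490. Mrln, the muscle micropeptide myoregulin that inhibits the sarcoplasmic calcium pump, was at 4.26, 2.62, 15.7, 8.75 and 2.35 CPM in Ai-α4KO BAT and at 0 in every Ai-α4KO iWAT library. With a floor of 3 counts over the group this is at least 475-fold higher. By the same floor A530050N04Rik was at least 228-fold higher, Efcab6 118-fold, Zp2 81.7-fold and Asb18 75.4-fold. A530050N04Rik was also found in Control BAT, at 22.2 to 115 CPM, above the 1.87 to 5.42 CPM of Ai-α4KO BAT. For Tecrl, a reductase of heart and muscle, a single count in iWAT library 1 gave a ratio of 1697 (95% counting interval 305 to 67018), for BC048679 of 1254 (225 to 49518) and for Gm13490 of 437 (78.5 to 17280). With the muscle score, Ucp1 and Slc27a2 were the genes of these 10 that were called.

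On the iWAT side the 10 were Hoxc10, Hoxa10, Krt18, Hoxc9, Tacr1, Hoxa9, Pla2g5, Il31ra, Pgr and Krt20. Pgr, the progesterone receptor, was at 1.49, 1.84, 3.26, 0.193 and 1.09 CPM in BAT and 11.6, 9.75, 15.6, 6.43 and 39.8 CPM in iWAT of Ai-α4KO mice, with a similar range in Control iWAT (11.5 to 25.3 CPM). Tacr1, the substance P receptor, was at 0 to 0.169 CPM in BAT and 0.77 to 1.69 CPM in iWAT (-4.27, adjusted p = 0.000454). Il31ra, a receptor subunit for interleukin 31, differed by -3.44 (adjusted p = 0.000459) beside -3.31 in Control mice. Krt18, a keratin of simple epithelia, rested on iWAT libraries 1 and 2 (16.3 and 35.4 CPM, with 0.289 to 1.06 CPM in the others), and it was not called in 7 of 10 fits that left out 1 library (-6.43 to -4.86).

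Some genes differed between the Ai-α4KO tissues and not between the Control tissues. Of 584 genes higher in BAT in Ai-α4KO mice alone, 56 passed the interaction, with median levels of 4.84 log2 CPM in Ai-α4KO BAT, 2.82 in Ai-α4KO iWAT, 3.61 in Control BAT and 3.67 in Control iWAT. Itih4 (chr14:30886476-30901986), an acute phase inhibitor heavy chain best known from liver, was the largest. It was at 178, 271, 242, 226 and 283 CPM in Ai-α4KO BAT and 4.77, 11, 1.68, 5.46 and 1.76 CPM in Ai-α4KO iWAT. The lowest BAT library was far above the highest of the other groups, since Control BAT had 0.9 to 2.33 CPM and Control iWAT 1.44 to 12 CPM. The fitted log2 difference was 5.65 (standard error 0.52, adjusted p = 7.5e-05), with 5.02 (adjusted p = 0.069) with the muscle score. The interaction of 7.17 (adjusted p = 3.9e-05) passed in all 20 fits that left out 1 library.

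The next genes by this rule were Lgi1 (4.19 in Ai-α4KO and 0.71 in Control mice), Phkg1, the muscle subunit of phosphorylase kinase (4.15 and 0.43), Cers1, a ceramide synthase (4.07 and 0.40), and Ndrg2 (3.70 and 0.64). Ndrg2 was at 392 to 1245 CPM in Ai-α4KO BAT, 167 CPM in iWAT library 1 and 22.8 to 37.4 CPM in the other Ai-α4KO iWAT libraries, and its highest libraries in each tissue were those with the highest muscle share. The interaction passed in 20 of the 20 fits that left out 1 library for Lgi1, 19 for Phkg1, 18 for Ndrg2 and 8 for Cers1. In the fit with the muscle score the Ai-α4KO differences were 3.43 for Lgi1, 2.72 for Phkg1, 1.96 for Cers1 and 1.51 for Ndrg2, none of them called. On the iWAT side a single gene met the rule, Vdr, the vitamin D receptor, with 5.02 to 12.8 CPM in BAT and 19.3 to 36.5 CPM in iWAT (-1.27, adjusted p = 0.00319). Its interaction of -2.25 passed in 4 of 20 fits.

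For 4 genes the order of the tissues was reversed. Clu, the secreted chaperone clusterin, was at 539, 750, 287, 353 and 416 CPM in Ai-α4KO BAT and 150, 87.4, 58.4, 108 and 71.9 CPM in Ai-α4KO iWAT, where Control BAT had 14.7 to 29.8 CPM and Control iWAT 28.5 to 286 CPM. Control iWAT libraries 1 and 4, those with the high B cell sums, held 286 and 156 CPM of Clu. The log2 difference was 2.34 (adjusted p = 0.000399) against -2.38, with an interaction of 4.65 (adjusted p = 0.0009), and an adjusted p of 0.00046 for the interaction without these Control libraries. Fgf13, an intracellular member of the fibroblast growth factor family, was at 5.67, 5.78, 17.7, 21.3 and 13 CPM in Ai-α4KO BAT and 3.14, 1.59, 2.23, 3.4 and 2.44 CPM in Ai-α4KO iWAT, with 0.865 to 5.05 CPM in Control BAT and 5.18 to 12.3 CPM in Control iWAT. Its log2 differences were 2.36 (adjusted p = 0.00142) and -1.88.

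Uchl1, a neuronal ubiquitin hydrolase (1.53 against -1.98), and Carns1, the carnosine synthase of muscle and brain (1.16 against -1.14), were the other 2. Uchl1 lost its call in Ai-α4KO mice in 7 of 10 fits that left out 1 library (1.39 to 1.62, adjusted p of 0.011 to 0.019) and Carns1 in 8 (0.93 to 1.22, adjusted p of 0.012 to 0.027). With the score of muscle markers as a covariate the Ai-α4KO differences were 1.84 for Clu, 1.85 for Fgf13, 1.62 for Uchl1 and 0.62 for Carns1, and no call was made. The interaction, fitted without that score, passed for all 4 genes in each of the 20 fits that left out 1 library.

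Other differences between the Control tissues were not called in Ai-α4KO mice and passed the interaction. On the BAT side the 5 largest by the rule were Impdh1, Slc6a19, Gm4961, Ano1 and Ninl. Impdh1, an enzyme of guanine nucleotide synthesis, was at 42, 34.8, 22.9, 21.3 and 28.3 CPM in Ai-α4KO BAT and 32.4, 18.4, 18.6, 18.8 and 18.3 CPM in Ai-α4KO iWAT. The tissues overlapped, and Control BAT stood alone at 320 to 614 CPM above 34.5 to 45.7 CPM in Control iWAT. The interaction was -3.10 (adjusted p = 3.4e-05). Ano1, a calcium-activated chloride channel, was at 4.14 to 8.89 CPM in Ai-α4KO BAT against 56.8 to 120 CPM in Control BAT (interaction -2.03, adjusted p = 0.0011). Slc6a19, a neutral amino acid transporter, kept a difference of 1.26 that missed the threshold (adjusted p = 0.0205), and its interaction passed in 13 of 20 fits that left out 1 library, that of Gm4961 in 10.

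On the iWAT side the 5 were Alb, Ltb, Cd22, Cst7 and Serpina3n. Serpina3n, an acute phase serine protease inhibitor, was at 466, 609, 268, 146 and 186 CPM in Ai-α4KO BAT and 744, 1278, 783, 845 and 444 CPM in Ai-α4KO iWAT, with 9.06 to 25 CPM in Control BAT and 271 to 404 CPM in Control iWAT. Each Ai-α4KO tissue was above its Control tissue, and 2 of the 5 Ai-α4KO BAT libraries were above the range of Control iWAT, with 3 below it. Its interaction was 3.12 (adjusted p = 0.00092). Ltb, lymphotoxin β, and Cd22, a B cell lectin, were high in Control iWAT libraries 1 and 4 alone (91.5 and 40 CPM of Ltb, 49.7 and 14.6 CPM of Cd22, with 0.586 to 1.49 CPM of either gene in the others). Without those libraries the interaction had an adjusted p of 0.049 for Ltb and 0.0082 for Cd22. Alb, albumin, passed in 19 of the 20 fits that left out 1 library and Ltb in 8.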

How the data were processed

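RNA of mouse iWAT and BAT was sequenced from stranded mRNA libraries as pairs of 150 bp. The submitters' processing notes name STAR 2.5.3a, bcl2fastq 2 and the mm10 build, and the counting tool is not given in the sources used here. The authors deposited expected counts (estimated reads per gene, not normalised, 76.6% of nonzero values whole within 1e-09) and FPKM values for 25219 genes in 20 libraries, of 24023371 to 50384446 counts each. The mitochondrial chromosome has 0 genes in that table, and mitochondrially encoded transcripts were not analysed here. Intervals and floors cover counting error only.

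Rounded counts were fitted with edgeR 4.0.16 in R 4.3.3 (filterByExpr, TMM, glmQLFit and glmQLFTest). Ai-α4KO BAT and iWAT were compared in a fit of those 10 libraries, Control BAT and iWAT in another, and the genotype by depot interaction in a fit of all 20. Adjusted p-values come from the quasi-likelihood test of edgeR, by the Benjamini-Hochberg method over all genes tested. Called genes had an adjusted p under 0.01 and differed at least 2-fold. Log2 CPM of single libraries used a prior count of 2. The depot axis is the projection of log2 CPM on the line between the Control tissue means. The test was checked on simulated counts.

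The libraries were grouped by their titles, tissue and genotype labels. The members and the 21 gene lists were chosen with earlier results of these data known. The named genes are Igbp1, list members, the 10 largest differences per direction among called genes without overlap and with at least 1 CPM, the 5 largest per direction called in 1 genotype alone with an interaction, and all genes called in opposite directions. Replicate numbers did not pair the tissues (correlations of same-numbered libraries from -0.265 to 0.244 in Ai-α4KO mice). Alternatives were no TMM factors, upper-quartile scaling, DESeq2 1.42.0, other filters and thresholds, limma 3.58.1 on log2(FPKM + 1) and log2(FPKM + 0.1), a common fit, a replicate block, a muscle marker score (mean log2 CPM) as a covariate and leaving out each library. Promoter sequences came from RefSeq.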

Additional observations from a re-analysis of the deposited data

Results flagged for a closer look

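In 20 of 226 groups of 5 libraries examined for the named genes, 1 library stood far from the other 4, and chance alone gives about 1 group in 20. The same was seen for the share of counts from skeletal muscle markers, at 0.919% in library 1 of Ai-α4KO iWAT and 1.15% in library 4 of Control iWAT. Library 1 of Ai-α4KO iWAT was also apart for the muscle genes Acta1 (1316 CPM), Fabp3 (44 CPM) and Ndrg2 (167 CPM), and for Uqcrc1 (189 CPM), Atp5b (1333 CPM), Hoxa5 (4.54 CPM), Hoxd9 (2.68 CPM) and Impdh1 (32.4 CPM). Library 4 of Ai-α4KO BAT, with the highest muscle share, was apart for Efcab6 (4.7 CPM), Asb18 (2.61 CPM), Vdr (5.02 CPM) and Gyk (228 CPM), and library 5 for Cidea (901 CPM), Elovl3 (69.9 CPM) and Slc6a19 (1.4 CPM). Library 1 of Ai-α4KO BAT held 840 CPM of Adipoq and library 2 held 13.3 CPM of Uchl1. In Ai-α4KO iWAT, library 2 was low in Pi16 (46.4 CPM) and library 5 was high in Pgr (39.8 CPM) and low in Carns1 (3.19 CPM).

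For 37 of the genes given with values the depot difference itself differed between Ai-α4KO and Control mice by edgeR's interaction test (other list members are counted and not listed), given here as Ai-α4KO minus Control on the log2 scale. The thermogenic and patterning genes were Ucp1 (4.21), Ppargc1a (1.89), Cox7a1 (2.44), Tbx15 (1.99) and Hoxd9 (2.45). Atp5g3, of the OXPHOS list, had 1.30. Genes of white adipocytes were Sncg (3.45), Wfdc21 (2.29) and Trabd2b (1.75). Macrophage and chemokine genes were Emr1 (1.79), Cd68 (2.15), C1qa (1.96), Trem2 (3.49), Clec10a (1.82), Itgam (1.61) and Ccl8 (4.01). Other genes higher in Control iWAT were Alb (5.95), Ltb (6.18), Cd22 (6.76), Cst7 (3.90) and Serpina3n (3.12). The genes whose BAT difference was larger in Ai-α4KO mice were Itih4 (7.17), Lgi1 (3.38), Phkg1 (3.62), Cers1 (3.58) and Ndrg2 (2.98), and those with a reversed order were Fgf13 (4.14), Uchl1 (3.42), Clu (4.65) and Carns1 (2.21). Lower values were found for Acsl5 (-2.48), Impdh1 (-3.10), Slc6a19 (-2.24), Gm4961 (-2.46), Ano1 (-2.03), Ninl (-2.87) and Vdr (-2.25). Without Control iWAT libraries 1 and 4 the interaction missed the threshold for Hoxd9, Tbx15, Ndrg2, Cers1, Slc6a19, Gm4961, Vdr and Ltb (adjusted p of 0.011 to 0.049).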

How the results depend on the processing

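The depot axis difference of 0.73 ran from 0.58 to 1.03 over its alternatives (0.69 to 0.79 when 1 library was left out), with p = 0.0079 (exact permutation test) in each, the smallest these designs allow, so that the p says nothing about stability. The count higher in Ai-α4KO BAT moved beyond 1.5 times only with the muscle score as a covariate, to 7 genes, and ran from 953 to 1480 when 1 library was left out. The count higher in Ai-α4KO iWAT was 772 without TMM factors, 722 at an adjusted p below 0.05, 29 with the muscle score, and 278 to 559 when 1 library was left out. Not counting genes at least 2-fold higher in Ai-α4KO iWAT library 1 than in the median of the other libraries, an alternative chosen after seeing the data, left 903 genes higher in BAT and 442 in iWAT. The number of genes called alike in both genotypes was 325 for BAT with limma on log2(FPKM + 1), and for iWAT 636 without TMM factors, 244 with at least 10 counts in every library, 573 at an adjusted p below 0.05 and 233 to 465 when 1 library was left out. Interactions toward Ai-α4KO BAT numbered 1254 with DESeq2, 1432 at an adjusted p below 0.05 and 309 to 853 when 1 library was left out. Interactions the other way numbered 115 without TMM factors, 147 with upper-quartile scaling, 386 with DESeq2, 130 with no filter, 127 with at least 10 counts in every library, 131 with limma on log2(FPKM + 0.1), 865 at an adjusted p below 0.05, 93 to 264 when 1 library was left out, and 68 without Control iWAT libraries 1 and 4, chosen after seeing the data. These moves have causes that were not tested, beyond the fewer libraries or genes that some settings hold.

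A replicate block gave 1071 genes higher in Ai-α4KO BAT, 343 in iWAT, 533 and 275 called alike in both genotypes, and interactions for 367 toward BAT and 150 the other way. Since the numbers do not pair the tissues, the block is only a setting.

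Of the named genes, 8 changed sign in Ai-α4KO tissue under some setting. Sncg (0.07) was -0.08 without TMM factors, 0.00 with upper-quartile scaling, -0.04 with limma at either pseudocount, and -0.05 to 0.23 when 1 library was left out. Ninl (0.07) was -0.09, 0.00, -0.04 and -0.13 with no TMM factors, upper-quartile scaling and limma at 1 and 0.1, 0.00 with the block, -0.52 with the muscle score and -0.16 to 0.29 when 1 library was left out. Ltb (0.25) ran from -0.02 to 0.55 when 1 library was left out. With the muscle score Trem2 was -0.74, Ccl8 0.18, Impdh1 -0.02, Gm4961 -0.06, Ltb -0.60 and Acta1 -0.56.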
